A study of Mus musculus with 20 samples.

Results

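The mRNA of 33 genes for glutamate and GABA receptor subunits was followed in mouse brain lacking Glb1, Neu3 or both. The genes were taken by symbol from a list of ionotropic and metabotropic receptors: 4 AMPA, 5 kainate and 6 NMDA receptor subunits, the delta receptor gene Grid1, 6 metabotropic glutamate receptors, 9 GABA-A receptor subunits and both GABA-B receptor subunits. All 33 were found among the 54532 genes of the deposited count table. All 33 also passed the filter on low counts, which 18336 genes passed, and the lowest read count of any member in any library was 166, for Grm8. The libraries came from a brain hemisphere of mice, 5 libraries per genotype. DKO carried a knockout of both Glb1 and Neu3, Glb1KO a knockout of Glb1, Neu3KO a knockout of Neu3, and WT neither. The labels named no driver line or altered exon for the knockouts and gave no age, strain or sex. RNA came from a single hemisphere per library, and every library had its own identifier, but the labels did not state that the animals were separate, so p-values measured the spread between these libraries.

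Glb1 codes for lysosomal beta-galactosidase, which cleaves GM1 ganglioside, and Neu3 for a plasma membrane sialidase that acts on gangliosides. Glutamate is the main excitatory transmitter of the brain. AMPA, kainate and NMDA receptors are glutamate-gated cation channels assembled from several subunits, whereas metabotropic glutamate receptors signal through G proteins and often act on the terminals that release transmitter. GABA is the main inhibitory transmitter. GABA-A receptors are chloride channels of mixed subunits, and the GABA-B receptor is a G protein-coupled dimer of the Gabbr1 and Gabbr2 products.

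Total counts ran from 15162311 to 25145806 per library. Levels are given as TMM-scaled CPM, a share of each library's counts, with the standard deviation over 5 libraries. Glb1 averaged 3.999 ± 1.07 CPM in DKO, 3.38 ± 0.903 in Glb1KO, 20.5 ± 1.34 in Neu3KO and 20.2 ± 1.32 in WT. Neu3 averaged 2.98 ± 0.826 CPM in DKO, 4.06 ± 0.621 in Glb1KO, 2.86 ± 0.409 in Neu3KO and 3.85 ± 1.22 in WT, and the ranges overlapped, so Neu3 counts did not separate its labels. The sample identifiers began with E in 2 DKO, 2 Glb1KO, 1 Neu3KO and all 5 WT libraries, with W in 3 DKO and 4 Neu3KO libraries, and with L in 3 Glb1KO libraries. The labels do not explain the letters. Since no WT library had the letter W or L, results resting on the W libraries of DKO are also given from the E libraries alone.

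Promoter sequences of 4 members are shown because these members took different courses in the counts: Grm3 had the lowest fold change in DKO, Grin2d was lower in Glb1KO as well, Gabbr1 had the highest level per length, and Gabra5 had a log2 fold change of 0.02 in DKO. They are RefSeq sequences on GRCm38.p6, 5′ to 3′ on the gene's strand, with 250 bases before and 50 after the annotated start. Capitals mark the GC box motif GGGCGG or its complement on the other strand. The Grm3 start lies outside the gene limits of the deposited table, and its bases after the start were not found in a GENCODE M21 transcript. The Grin2d window lies inside the deposited gene limits, 45831883 to 45878378, and not at their 5′ end.
Grm3, chr5:9725303-9725602, minus strand: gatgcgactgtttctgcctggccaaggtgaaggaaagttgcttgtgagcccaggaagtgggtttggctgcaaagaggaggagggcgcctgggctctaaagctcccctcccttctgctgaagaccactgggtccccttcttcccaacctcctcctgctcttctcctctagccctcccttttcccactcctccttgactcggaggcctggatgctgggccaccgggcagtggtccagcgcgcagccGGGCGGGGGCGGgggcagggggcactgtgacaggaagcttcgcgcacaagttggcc
Grin2d, chr7:45866632-45866931, minus strand: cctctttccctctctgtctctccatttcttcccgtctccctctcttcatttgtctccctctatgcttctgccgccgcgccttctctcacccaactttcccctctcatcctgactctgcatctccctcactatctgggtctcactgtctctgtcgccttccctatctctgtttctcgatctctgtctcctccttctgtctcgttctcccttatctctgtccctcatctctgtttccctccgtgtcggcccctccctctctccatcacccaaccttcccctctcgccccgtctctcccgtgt
Gabbr1, chr17:37045716-37046015, plus strand: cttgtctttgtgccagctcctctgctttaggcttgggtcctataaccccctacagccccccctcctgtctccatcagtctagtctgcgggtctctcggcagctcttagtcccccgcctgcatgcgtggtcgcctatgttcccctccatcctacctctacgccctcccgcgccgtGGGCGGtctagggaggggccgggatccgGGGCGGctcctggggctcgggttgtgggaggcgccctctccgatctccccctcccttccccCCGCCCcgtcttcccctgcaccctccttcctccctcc
Gabra5, chr7:57510010-57510309, minus strand: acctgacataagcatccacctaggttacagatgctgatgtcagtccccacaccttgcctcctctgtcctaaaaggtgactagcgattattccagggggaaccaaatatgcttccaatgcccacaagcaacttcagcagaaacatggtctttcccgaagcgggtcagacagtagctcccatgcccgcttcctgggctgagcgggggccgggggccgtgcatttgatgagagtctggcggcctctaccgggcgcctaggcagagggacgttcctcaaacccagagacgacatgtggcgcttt
The Grm3 window held 2 GC boxes side by side and the Gabbr1 window held 3, whereas the Grin2d and Gabra5 windows held none. Entries existed for 23 of the 33 members, with 30 promoters in all. Searched on both strands, GGGCGG occurred in 53.3% of these 30 promoters and in 35.7% of all 32851 promoters of that length. The TATA box motif TATAAA occurred in 10% and 13.6%, the E-box motif CACGTG in 3.33% and 7.15%, and the cAMP response element TGACGTCA in 0% and 1.79%. A match is a stretch of letters and says nothing of binding.

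Of the 33 subunits, 19 fell in DKO relative to WT, none rose and 14 did not pass the test, which was edgeR's quasi-likelihood F test at an adjusted p under 0.05 over all tested genes. Among all tested genes 15.1% fell and 14% rose, 29% in all. The median log2 fold change was -0.21 over the members and -0.003 over all tested genes, and 31 of the 33 members lay below 0. The 5 DKO libraries all lay below the 5 WT libraries for 13 members and above them for none, as they did for 9.35% and 9.28% of tested genes. All 6 metabotropic glutamate receptors fell, as did 5 of 6 NMDA subunits and both GABA-B subunits, against 3 of 5 kainate, 1 of 4 AMPA, 2 of 9 GABA-A subunits and not Grid1. In RNA from a whole hemisphere, fewer cells of a type and less RNA per cell cannot be told apart.

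**Figure D1:**
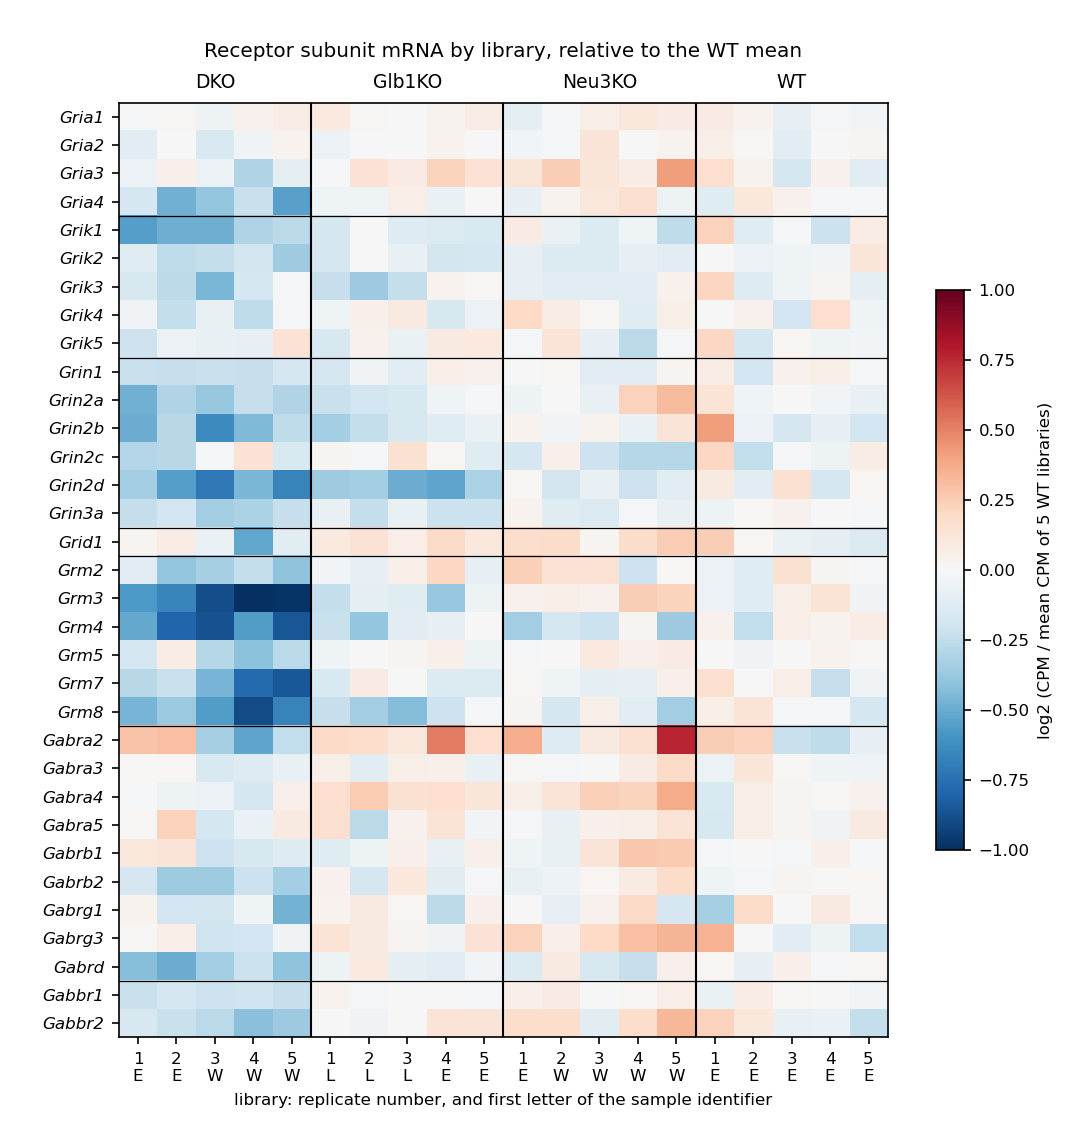
Level of the 33 subunits in each library as log2 of its CPM over the mean CPM of the 5 WT libraries (colour scale from -1 to 1), genes grouped by receptor family and libraries by genotype, with the replicate number and first letter of the sample identifier below. The DKO columns are darkest for Grm3, Grm4, Grm8, Grin2d and Grm7, and the 3 DKO libraries with the letter W are darker than the 2 with E for Grm3, Grm7 and Grm8.

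These directions depended on what the libraries were scaled to. When the libraries were scaled to 14 pan-neuronal genes, 8 of which fell in DKO, the median of all tested genes shifted to 0.19 and that of the members to -0.01, which was 0.21 below all tested genes. Under that scaling 6 members fell, Grin2d, Grm3, Grm4, Grm7, Grm8 and Gabrd, and 5 rose, Gria1, Gria2, Gabra3, Gabra4 and Gabra5. Of all tested genes 4.18% fell and 35% rose under it, 39.2% in all, and the 11 of 33 members called in total were not a larger share than that. The values for those that rose, between 0.13 and 0.22, lay near the shifted median of all genes. From the E libraries alone, 12 members fell in DKO relative to WT and none rose, while 5.56% of tested genes fell. They were Grin2c and 11 of the 19, without Grik2, Grik3, Grin2b, Grin3a, Grm2, Grm5, Grm7 and Gabbr2. Grin2d, Grm3, Grm4, Grm8 and Gabrd fell under all 22 alternatives to this fit.

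**Figure D2:**
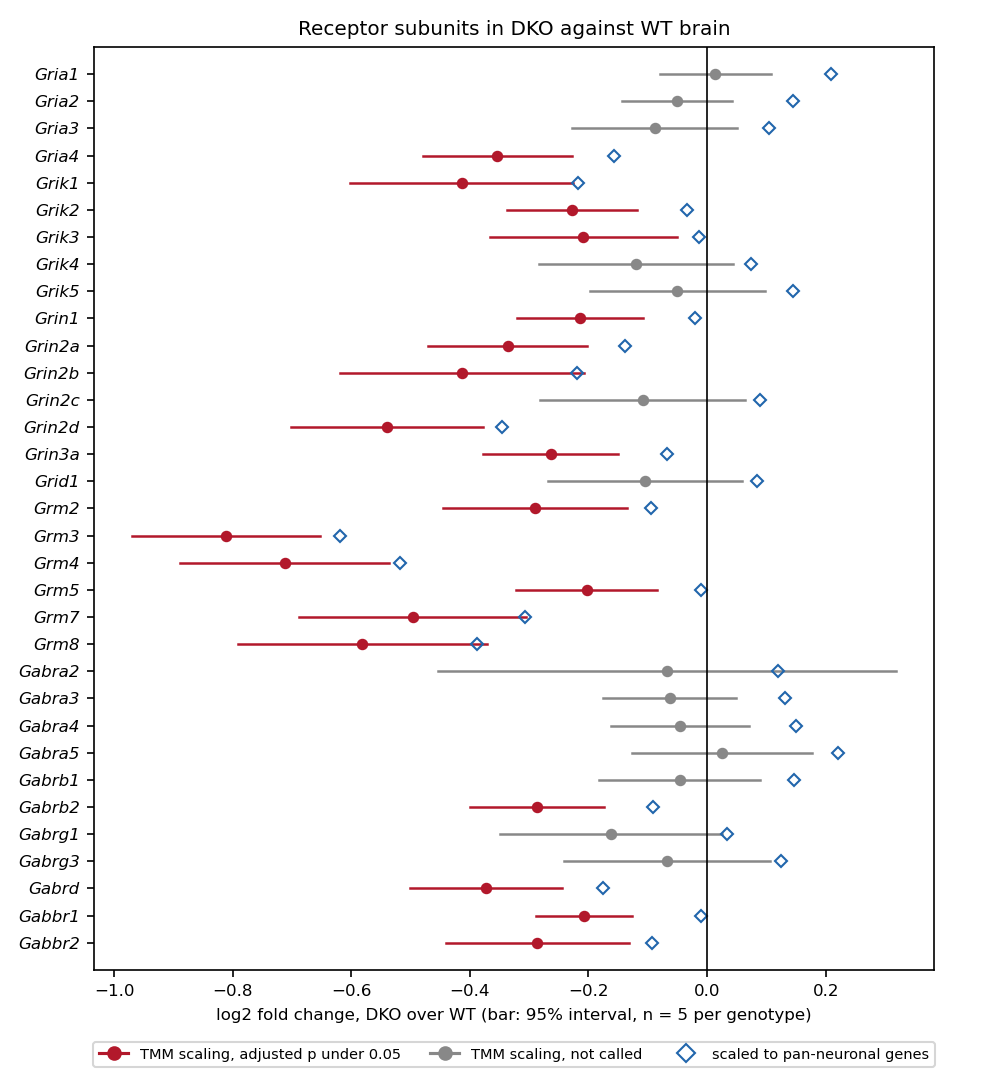
log2 fold change of each subunit in DKO over WT (horizontal axis) with its 95% interval, n = 5 libraries per genotype; red circles passed the test, grey circles did not, and open diamonds give the value when the libraries were scaled to pan-neuronal genes. All diamonds lie right of the circles, and those of all AMPA subunits but Gria4 and of all GABA-A subunits but Gabrb2 and Gabrd lie above 0. Under that scaling the median of all tested genes was 0.19.

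Of the AMPA receptor subunits, which carry fast excitatory transmission, Gria4 fell in DKO and Gria1, Gria2 and Gria3 did not pass the test. The family's median log2 fold change was -0.07. When the libraries were scaled to pan-neuronal genes it was 0.12, below the 0.19 of all tested genes. Gria4 (chromosome 9, 4417896 to 4796234, minus strand, GRCm38) had 159, 128, 137, 153 and 123 CPM in the DKO libraries, against 164, 192, 184, 177 and 178 CPM in the WT libraries. The groups did not overlap, although the highest DKO library came within a few CPM of the lowest WT library. The fall was 0.35 on the log2 scale (log2 fold change -0.35, SE 0.062, adjusted p = 3.48e-05 by edgeR). Gria1, the subunit of the highest level per length among the ionotropic receptors, had 471, 477, 457, 488 and 499 CPM in DKO, against 502, 486, 447, 469 and 465 CPM in WT. Its groups covered nearly the same range, and its log2 fold change was 0.01 with a 95% interval of -0.08 to 0.11. Gria2, whose edited subunit makes the channel impermeable to calcium, averaged 651 ± 33.9 CPM in DKO and 675 ± 28.0 CPM in WT, a log2 fold change of -0.05 with an interval of -0.14 to 0.04. Gria3 averaged 172 ± 14.8 CPM in DKO and 183 ± 16.8 CPM in WT (log2 fold change -0.09, adjusted p = 0.365 by edgeR).

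The kainate receptor genes Grik1, Grik2 and Grik3 fell, and Grik4 and Grik5, whose products need a Grik1, Grik2 or Grik3 product to form a working channel, did not pass the test. The family's median was -0.21. When the libraries were scaled to pan-neuronal genes it was -0.01, beside 0.19 for all tested genes, and none of the 5 passed. Grik1 had 12.5, 13.1, 13.04, 14.9 and 15.2 CPM in DKO, against 21.5, 16.8, 18.2, 15.8 and 19.3 CPM in WT. The groups were close but did not overlap, and the log2 fold change was -0.41 (SE 0.093, adjusted p = 0.000769 by edgeR). Grik2 averaged 80.4 ± 4.84 CPM in DKO and 94.2 ± 4.88 CPM in WT, again without overlap, with a log2 fold change of -0.23 (adjusted p = 0.00138 by edgeR). Grik3 was near the threshold, with a log2 fold change of -0.21 and an adjusted p of 0.0407 by edgeR, its groups overlapped, and the call held in 7 of 22 alternatives. Grik4 and Grik5 had log2 fold changes of -0.12 and -0.05, with intervals of -0.28 to 0.04 and -0.20 to 0.10.

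Of the NMDA receptor genes, Grin1, Grin2a, Grin2b, Grin2d and Grin3a fell and Grin2c did not pass the test. The family's median was -0.30. When the libraries were scaled to pan-neuronal genes it was -0.10, beside 0.19 for all tested genes, and only Grin2d of the 6 passed. Grin1 codes for the subunit that every NMDA receptor needs, the Grin2 genes for the glutamate-binding partners that set channel kinetics, and Grin3a for a glycine-binding partner. Grin2d (chromosome 7, 45831883 to 45878378, minus strand, GRCm38) had 27.9, 24.2, 21.6, 25.7 and 22.3 CPM in DKO, against 37.6, 32.7, 39.3, 31.5 and 35.8 CPM in WT. Every DKO library lay below every WT library, and Grin2d fell by 31.2% (log2 fold change -0.54, SE 0.079, adjusted p = 2.28e-06 by edgeR). Exons of Grin2d share 9.66% of their bases with the antisense gene Gm45441, which had 479 reads against 10648 for Grin2d, and the strand setting of the counting was not given.

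Grin2a, whose subunit replaces much of the Grin2b product as the forebrain matures, had 125, 141, 135, 149 and 142 CPM in DKO, against 192, 169, 175, 171 and 166 CPM in WT. The groups were apart, with a log2 fold change of -0.34 (SE 0.066, adjusted p = 0.000166 by edgeR). Grin2b had 471, 549.8, 428, 488 and 559 CPM in DKO, against 886, 637, 591, 628 and 581 CPM in WT. WT replicate 1 stood far above the other WT libraries, and the log2 fold change of -0.41 (adjusted p = 0.00328 by edgeR) was -0.28 without it. The call of Grin2b was lost in the E libraries alone. The obligatory subunit Grin1 had 359, 358, 359.9, 358 and 374 CPM in DKO, against 443, 368, 433, 438 and 417 CPM in WT. The DKO libraries were close together, 1 of them above the lowest WT library, and the log2 fold change was -0.21 (SE 0.052, adjusted p = 0.00183 by edgeR). Exons of Grin1 share 13.47% of their bases with the antisense gene Grin1os, with 3813 reads against 142371 for Grin1. Grin3a averaged 53.4 ± 2.37 CPM in DKO and 64.1 ± 1.55 CPM in WT without overlap (log2 fold change -0.26, adjusted p = 0.000422 by edgeR). Grin2c, best known from cerebellar granule cells and astrocytes, averaged 113 ± 14.97 CPM in DKO and 122 ± 14.0 CPM in WT; its log2 fold change of -0.11 did not pass the test, with an interval of -0.28 to 0.06. The 3 W libraries of DKO had 120.4, 135 and 109.7 CPM of Grin2c, above the 99.3 and 100.2 CPM of the E libraries, and within the E libraries Grin2c fell with a log2 fold change of -0.28. The delta receptor gene Grid1, which codes for a synaptic organiser rather than a typical glutamate-gated channel, averaged 50.1 ± 7.47 CPM in DKO and 53.8 ± 5.96 CPM in WT and did not pass the test (log2 fold change -0.11, adjusted p = 0.356 by edgeR).

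The metabotropic glutamate receptors had a median log2 fold change of -0.54 in DKO, against -0.003 over all tested genes. When the libraries were scaled to pan-neuronal genes the family's median was -0.35, against 0.19 over all tested genes. Grm2 and Grm3 form group II and Grm4, Grm7 and Grm8 group III, both of which couple to inhibition of adenylyl cyclase, while Grm5 is a group I receptor that couples to phospholipase C. Grm3 (chromosome 5, 9485541 to 9725170, minus strand, GRCm38), which astrocytes and oligodendrocyte precursors express beside neurons, had 41.8, 39.3, 33.7, 31.0 and 31.6 CPM in DKO. It had 52.8, 58.5, 57.2, 47.8 and 60.2 CPM in Glb1KO, 64.2, 65.3, 64.3, 73.9 and 72.7 CPM in Neu3KO and 59.9, 57.2, 65.0, 68.4 and 60.8 CPM in WT. The DKO libraries lay below all other libraries, and the 3 W libraries lay below the 2 E libraries. Grm3 fell by 43.0% relative to WT (log2 fold change -0.81, SE 0.078, adjusted p = 3.9e-10 by edgeR), and its log2 fold change was -0.60 in the E libraries alone and -0.62 when scaled to pan-neuronal genes.

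Grm4, the main group III receptor of cerebellar granule cell terminals, had 94.4, 77.7, 73.5, 91.3 and 74.3 CPM in DKO, against 139, 114, 141, 138 and 142 CPM in WT. No DKO library reached the lowest WT library, and Grm4 fell by 39.0% (log2 fold change -0.71, SE 0.086, adjusted p = 3.77e-07 by edgeR). Grm8 had 12.8, 13.7, 12.1, 9.54 and 11.1 CPM in DKO, against 18.4, 19.5, 17.6, 17.4 and 15.7 CPM in WT. It was the member of lowest level per length and its groups were apart, with a log2 fold change of -0.58 (SE 0.10, adjusted p = 4.46e-05 by edgeR). Grm7, a receptor of presynaptic active zones, had 49.3, 51.2, 43.3, 34.7 and 33.1 CPM in DKO, against 66.7, 59.9, 62.5, 50.8 and 58.3 CPM in WT. The highest DKO library lay above the lowest WT library; the log2 fold change was -0.50 (SE 0.093, adjusted p = 0.000156 by edgeR), and -0.24 without a call in the E libraries alone. Grm2 and Grm5 fell less, with log2 fold changes of -0.29 and -0.20 (adjusted p = 0.00375 and 0.00789 by edgeR), overlapping groups and no call in the E libraries alone. In Grm5 the DKO libraries ran from 168 to 236 CPM and the WT libraries from 218 to 228 CPM.

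**Figure D3:**
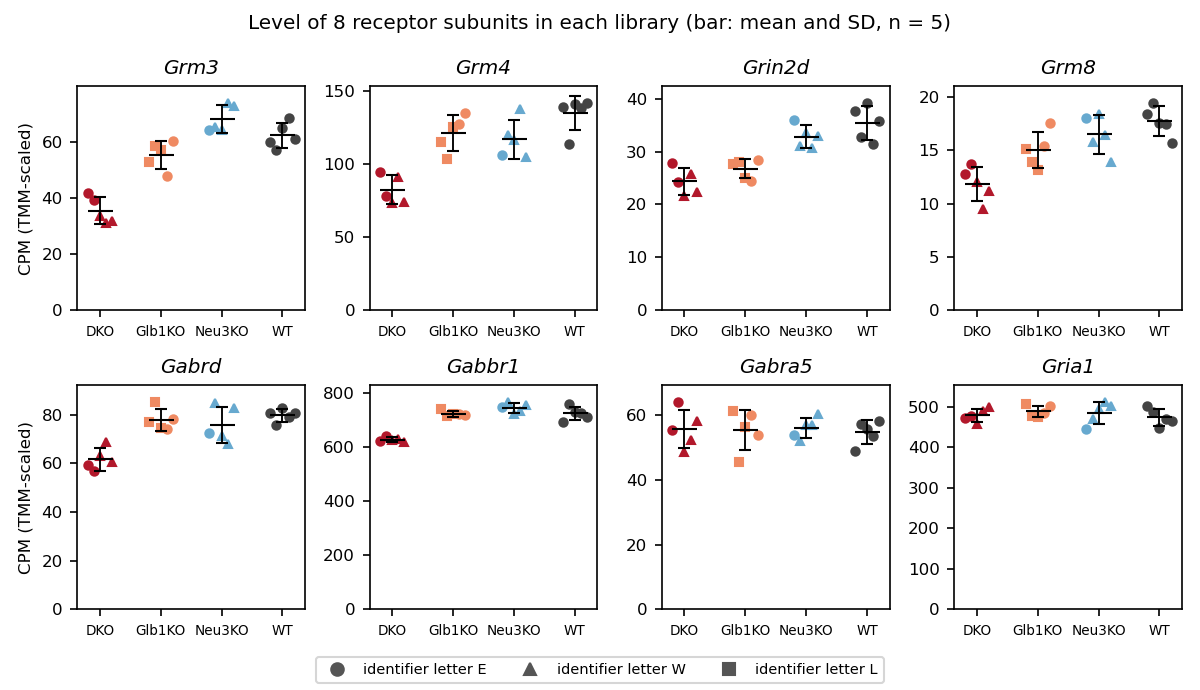
CPM of 8 subunits in each library (vertical axes start at 0), with the mean and SD over 5 libraries per genotype as black bars and the marker shape giving the first letter of the sample identifier. For Grm3, Grm4, Grin2d, Grm8, Gabrd and Gabbr1 all DKO points lie below all WT points, while for Gabra5 and Gria1 the ranges coincide.

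Of the GABA-A receptor subunits, Gabrb2 and Gabrd fell in DKO and the other 7 did not pass the test. The family's median was -0.07. When the libraries were scaled to pan-neuronal genes it was 0.12, below the 0.19 of all tested genes. Gabrd (chromosome 4, 155384980 to 155398112, minus strand, GRCm38) codes for the delta subunit of receptors outside synapses, abundant in cerebellar granule cells, thalamus and dentate gyrus. It had 59.3, 56.7, 62.9, 68.8 and 60.4 CPM in DKO, against 80.8, 75.6, 82.8, 79.0 and 80.8 CPM in WT. The groups were apart, and here the W libraries of DKO lay above the E libraries (log2 fold change -0.37, SE 0.063, adjusted p = 2.32e-05 by edgeR). Gabrb2, a beta subunit of the most common synaptic receptors, had 182, 160.2, 160.1, 177 and 162 CPM in DKO, against 199, 204, 209, 207 and 208 CPM in WT. These groups did not overlap either (log2 fold change -0.29, SE 0.056, adjusted p = 0.000148 by edgeR).

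The alpha subunit genes Gabra2, Gabra3, Gabra4 and Gabra5 had log2 fold changes between -0.07 and 0.02 in DKO relative to WT. Gabra5, whose subunit is prominent in hippocampus, had 55.4, 64.2, 48.5, 52.4 and 58.4 CPM in DKO, against 49.0, 57.4, 55.9, 53.6 and 58.2 CPM in WT. Its groups overlapped throughout, with a 95% interval of the log2 fold change of -0.13 to 0.18. Gabra2 was the most variable member: it had 39.5, 40.0, 25.9, 22.5 and 27.4 CPM in DKO, against 38.4, 38.2, 27.8, 27.2 and 30.7 CPM in WT. Both groups held higher and lower libraries, in DKO split by the letters E and W but in WT within E alone, and the 95% interval ran from -0.45 to 0.32. Gabra3 and Gabra4 had narrower intervals, of -0.18 to 0.05 and -0.16 to 0.07. Gabrb1 had a log2 fold change of -0.05 (adjusted p = 0.66 by edgeR), Gabrg1, which glia also express, of -0.16 (adjusted p = 0.197) and Gabrg3 of -0.07 (adjusted p = 0.609). Gabrb1 was lower in every W library of DKO, at 156, 161 and 164 CPM, than in the E libraries, at 195 and 196 CPM.

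Both GABA-B receptor genes fell, with a median of -0.25. When the libraries were scaled to pan-neuronal genes the median was -0.05, against 0.19 over all tested genes. Gabbr1 (chromosome 17, 37045966 to 37075067, plus strand, GRCm38), whose product binds GABA, had 622, 642, 628, 631.1 and 620.2 CPM in DKO, against 694, 762, 733, 728 and 713 CPM in WT. The DKO libraries were tightly grouped below all other libraries, and Gabbr1 fell by 13.4% (log2 fold change -0.21, SE 0.040, adjusted p = 0.000135 by edgeR). Gabbr2, whose product carries the signal to G proteins, had 272, 261, 252.5, 228 and 236 CPM in DKO, against 357, 327, 289, 290.4 and 258 CPM in WT. The DKO libraries with the highest values reached into the WT range, with a log2 fold change of -0.29 (SE 0.075, adjusted p = 0.00489 by edgeR) and no call in the E libraries alone.

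Across DKO, 11 members had every W library below both E libraries, among them Grm3, Grm5, Grm7, Grm8, Grid1, Gabra2 and Gabbr2, as had 17% of tested genes. Grin2c and Gabrd had every W library above both, as had 13.4% of tested genes. The part of the identifier letter in the differences was not tested beyond the fits given here. With the letter as a term in the fit, 15 members fell in DKO relative to WT, while 9.04% of tested genes fell. In the authors' deposited table of DKO against WT, 18 members had an adjusted p under 0.05, all of them lower and all called here too, and the sign was the same for all 33. That table is of the same series, so the agreement is not independent support. The share of all genes called in it was not taken.

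Levels per gene length spanned from Gabbr1 down to Grm8. Gabbr1 stood highest in WT at 93.5 ± 3.26 CPM per kb, followed by Gria1 at 78.4 ± 3.44. Next came Gabbr2 at 45.5 ± 5.70, Gria2 at 43.4 ± 1.80, Grin1 at 43.3 ± 3.17 and Grik5 at 42.1 ± 4.14 CPM per kb in WT, which did not differ from each other beyond their SDs. Grik1 at 2.73 ± 0.331, Gabrg3 at 2.56 ± 0.414 and Grm8 at 1.79 ± 0.142 CPM per kb were lowest in WT. In DKO the first and last places were the same, at 81.0 ± 1.12 CPM per kb for Gabbr1 and 1.198 ± 0.162 for Grm8. Grm3 had 11.6 ± 1.58 CPM per kb in DKO against 20.4 ± 1.46 in WT, which was place 20 of 33 in DKO and place 15 in WT. Grm4 had 13.8 ± 1.65 CPM per kb in DKO against 22.5 ± 1.99 in WT, which was place 18 in DKO and place 13 in WT.

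**Figure D4:**
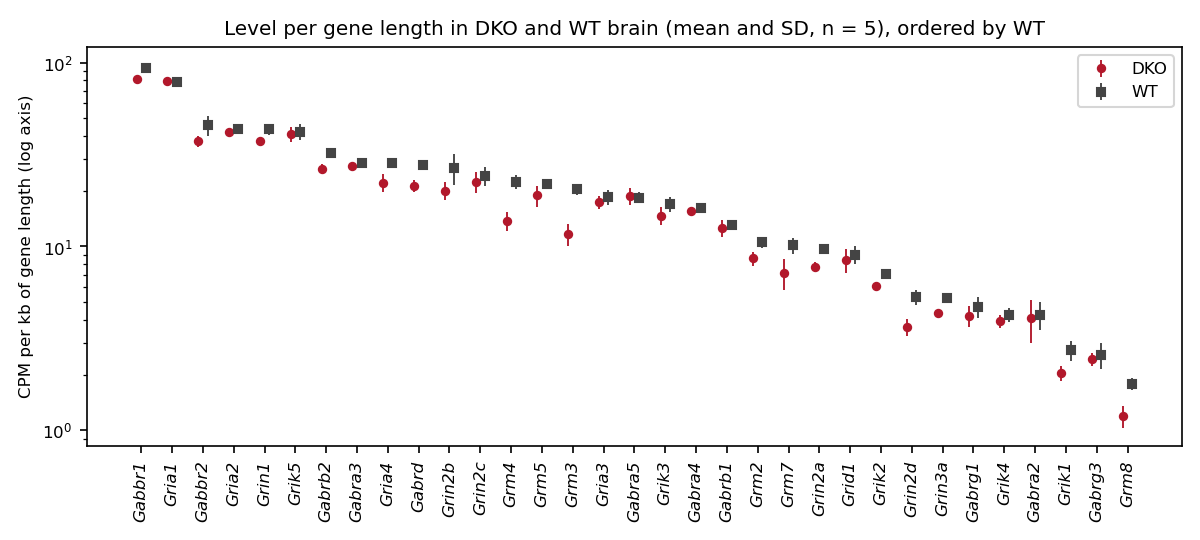
Mean level per gene length (CPM per kb, log axis) of the 33 subunits in DKO (red circles) and WT (dark squares), with the SD over 5 libraries, ordered by the WT level. The gap between DKO and WT is widest for Grm3, Grm4 and Grm8 and closes for Gria1 and Gabra5.

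Ratios between subunits that combine in the same receptor, taken per length within each library, do not depend on the scaling between libraries. None of 4 ratios in 5 comparisons passed an exact two-sided permutation test after adjustment over the 20 tests. With 5 libraries against 5 the smallest p this test can give is 0.00794, before adjustment. A lone ratio at that p would not pass after adjustment over 20 tests, so a shift in a single ratio and comparison could not be called. The log2 ratio of Gria2 to Gria1 averaged -0.92 ± 0.037 in DKO and -0.85 ± 0.034 in WT (exact permutation p = 0.0317, adjusted 0.476). The log2 ratio of Gabbr2 to Gabbr1 averaged -1.12 ± 0.10 in DKO and -0.93 ± 0.14 in Neu3KO (exact permutation p = 0.0476, adjusted 0.476). The ratio of Grin2a to Grin2b, which rises as the forebrain matures, averaged -1.38 ± 0.14 in DKO and -1.44 ± 0.18 in WT on the log2 scale (exact permutation p = 0.556, adjusted 0.822). These tests did not detect a shift, which does not show that the ratios were equal.

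In Glb1KO relative to WT, Grin2d fell and the other 32 members did not pass the test, whereas 2.21% of all tested genes fell and 1.75% rose, 3.96% in all. Grin2d had 27.7, 28.0, 25.1, 24.5 and 28.5 CPM in Glb1KO, against 37.6, 32.7, 39.3, 31.5 and 35.8 CPM in WT. The groups were apart, and Grin2d fell by 24.4% (log2 fold change -0.40, SE 0.079, adjusted p = 0.00103 by edgeR). In the E libraries alone, 2 of Glb1KO and 5 of WT, the log2 fold change was -0.42 with an adjusted p of 0.0538 by edgeR. Beside it, the summed level of the hindbrain and spinal marker list ran from 14.0 to 32.0 CPM in Glb1KO, against 62.6 to 102 CPM in WT, and 3 of its 6 tested markers fell. All 10 myelin and 3 of 7 oligodendrocyte precursor markers also fell in Glb1KO, while 8 of 12 microglial, 5 of 8 reactive astrocyte and 2 of 14 pan-neuronal markers rose. The part of these lists in the result was not tested. Of the other members, Grik2, Grin3a, Grm3, Grm8 and Gabra4 had an unadjusted p under 0.05 (log2 fold changes -0.12, -0.16, -0.17, -0.24 and 0.17). With Grin2d that made 6 of 33, near the 16.2% of all tested genes. The groups did not overlap for Grin2d and Grin3a, lower in Glb1KO, and Gabra4, higher, as was so for 2.96% and 2.6% of tested genes. The median over the members was -0.02, and 0.002 over all tested genes.

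In Neu3KO relative to WT no member passed edgeR's test, nor did any other tested gene (0%). DESeq2 called no member and 2 genes in all. An unadjusted p under 0.05 was found for 6.03% of tested genes and for 6 members: Gria3, Grid1, Gabra4, Gabrg3 and Gabbr2 with log2 fold changes of 0.20, 0.17, 0.21, 0.22 and 0.16, and Grm4 with -0.21. Gabra4 had 103, 108, 116, 115 and 127 CPM in Neu3KO, against 88.4, 102, 100.1, 99.0 and 101 CPM in WT. These groups were apart, Neu3KO above WT, and Grik2 was apart with Neu3KO below WT, as were 0.524% and 0.66% of tested genes. The median over the members was 0.03.

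Relative to Glb1KO, 16 members fell in DKO and none rose, whereas 7.29% of all tested genes fell and 8.41% rose, 15.7% in all. The members' median was -0.21 and that of all tested genes -0.005. All 6 metabotropic receptors and both GABA-B genes were among the 16, with Gria3, Gria4, Grik1, Grin1, Grin2a, Gabra4, Gabrb2 and Gabrd. Grm3 had a log2 fold change of -0.64 (SE 0.078, adjusted p = 1.42e-07 by edgeR) and Grm4 of -0.56 (SE 0.086, adjusted p = 3.08e-05 by edgeR). Grin2d, which had fallen in Glb1KO itself, had 24.3 ± 2.57 CPM in DKO and 26.7 ± 1.82 CPM in Glb1KO and did not pass the test (log2 fold change -0.14, interval -0.30 to 0.03). The DKO libraries all lay below the Glb1KO libraries for 13 members and above them for none, as for 5.25% and 6.78% of tested genes. With the identifier letter as a term 7 members fell, while 2.51% of tested genes fell, and in the E libraries alone 5 did (Grin1, Grin2a, Grm3, Grm4 and Gabrd), while 1.43% of tested genes fell. Scaled to pan-neuronal genes 3 members fell and 5 rose, whereas 1.39% of all tested genes fell and 36.2% rose, 37.6% in all. The medians of the AMPA, kainate, NMDA and GABA-A families then lay between 0.05 and 0.11, below the 0.21 of all tested genes. Beside these differences, 12 of 14 pan-neuronal, 7 of 7 thalamic and 6 of 6 Purkinje markers were lower in DKO than in Glb1KO, and 8 of 8 reactive astrocyte and 10 of 12 microglial markers were higher. The summed pan-neuronal level ran from 7710 to 8533 CPM in DKO, against 9186 to 9492 CPM in Glb1KO; the part of these lists in the receptor differences was not tested.

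Relative to Neu3KO, 21 members fell in DKO and none rose, whereas 12.8% of all tested genes fell and 12.3% rose, 25.1% in all, and the members' median was -0.27. Grm3 had the lowest value, with a log2 fold change of -0.94 (SE 0.078, adjusted p = 1.15e-11 by edgeR), and it fell by 47.8%. Grin2a, Grin2b and Grin2d had log2 fold changes of -0.43, -0.44 and -0.43, and Gabbr2 had 249.8 ± 17.8 CPM in DKO and 339.6 ± 36.1 CPM in Neu3KO (log2 fold change -0.44, adjusted p = 5.91e-05 by edgeR). The DKO libraries all lay below the Neu3KO libraries for 16 members and above them for none, as for 7.2% and 8.43% of tested genes. Within the W libraries, 3 of DKO and 4 of Neu3KO, 19 members fell, while 9.92% of tested genes fell. Within the E libraries, 2 of DKO and 1 of Neu3KO, Grm3 alone did (log2 fold change -0.65), while 1.45% of tested genes fell, with the spread of the lone Neu3KO library assumed to be that of the other groups. Scaled to pan-neuronal genes 8 members fell and 3 rose, whereas 3.12% of all tested genes fell and 36.8% rose, 40% in all. The medians of the AMPA and kainate families were then 0.03 and 0.08, below the 0.21 of all tested genes. Beside these differences, 10 of 14 pan-neuronal, 7 of 7 thalamic, 6 of 6 Purkinje and all 10 myelin markers were lower in DKO than in Neu3KO, and 8 of 8 reactive astrocyte and 10 of 12 microglial markers were higher; their part was not tested. The comparisons of DKO with WT, Glb1KO and Neu3KO share the DKO libraries, so these counts are not independent.

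The interaction asked whether the effect of losing Neu3 differed between mice without and with Glb1; on the log2 scale, the difference of Neu3KO from WT was subtracted from that of DKO from Glb1KO. It passed the test below 0 for 10 members and above 0 for none, whereas 2.88% of all tested genes passed below 0 and 3.96% above, 6.84% in all, and the members' median was -0.24. The 10 were Grm3 (-0.77, SE 0.11, adjusted p = 6.87e-06 by edgeR), Gabbr2 (-0.49), Gabra4 (-0.43), Gria3 (-0.41), Grid1 (-0.39), Grm2 (-0.39), Gria4 (-0.37), Grin2a (-0.30), Gabrb2 (-0.29) and Gabbr1 (-0.25). For Gabra4 the value combined lower levels in DKO than in Glb1KO (log2 fold change -0.22) with higher levels in Neu3KO than in WT (0.21), and DKO itself, at 95.05 ± 5.22 CPM, lay close to WT, at 98.2 ± 5.60 CPM. Grin2d, which fell in both Glb1KO and DKO, had an interaction of -0.03 with an interval of -0.26 to 0.20. Grin2a was called in 15 of 31 alternatives and Grid1 in 22, against 30 for Grm3, whose call was lost in the E libraries alone, where no member's interaction passed the test. The interaction also passed below 0 for 7 of 14 pan-neuronal and 7 of 7 thalamic markers, and above 0 for 8 of 8 reactive astrocyte markers, whose part was not tested. Scaled to pan-neuronal genes, Grm3 and Gabbr2 passed below 0, with -0.54 and -0.26, and no member above. Of all tested genes 0.578% passed below 0 and 21.3% passed in all. The medians of the AMPA, kainate and NMDA families were then 0.0031, 0.22 and 0.14, below the 0.23 of all tested genes.

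**Figure D5:**
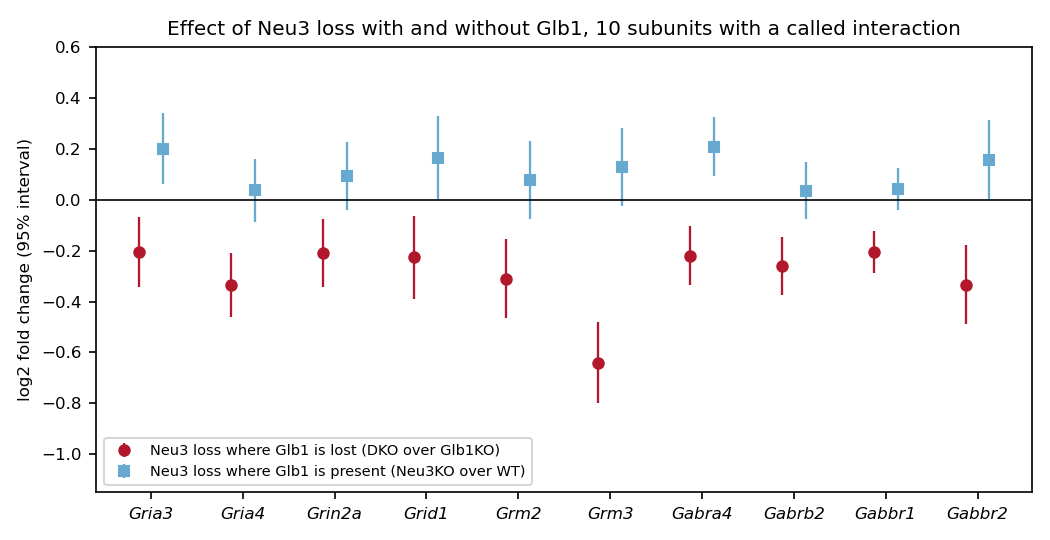
log2 fold change with its 95% interval for the loss of Neu3 where Glb1 is also lost (DKO over Glb1KO, red circles) and where Glb1 is present (Neu3KO over WT, blue squares), for the 10 subunits whose interaction passed the test. All red circles lie below 0, from -0.64 to -0.21, and all blue squares above 0, from 0.04 to 0.21. The 10 were chosen by an interaction below 0 in these same data. That choice favours low red and high blue values, so the opposite signs are not a separate result. When the libraries were scaled to pan-neuronal genes, the interaction medians of the AMPA and NMDA families were 0.0031 and 0.14. That of all tested genes was 0.23.

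Genes whose products work with the receptors were described from lists chosen by function. Of all tested genes 15.1% fell and 14% rose in DKO relative to WT. When scaled to pan-neuronal genes, 4.18% fell and 35% rose, with a median of 0.19. Of 13 auxiliary subunits of glutamate receptors, 9 fell in DKO relative to WT and none rose, with a median log2 fold change of -0.25 (-0.06 when scaled to pan-neuronal genes, with 2 higher and 2 lower). Cacng2, also known as stargazin, which carries AMPA receptors to synapses, had a log2 fold change of -0.38 (adjusted p = 3.08e-06 by edgeR), Shisa6 of -0.51, the cornichon gene Cnih2 of -0.33 and Gsg1l of -0.30. Cacng7, the highest of the list in CPM, had -0.14 (adjusted p = 0.0195 by edgeR). Of 10 anchors and auxiliary subunits of GABA receptors, 4 fell and 1 rose. Their median was -0.16 (0.03 when scaled to pan-neuronal genes, beside 0.19 for all tested genes). The gephyrin gene Gphn had a log2 fold change of -0.27, the adhesion gene Nlgn2 of -0.26, the GABA-B partner Kctd12 of -0.38 and Lhfpl4 of -0.25. Gabarap, which is also an autophagy gene, rose with 0.53 (adjusted p = 3.99e-07 by edgeR), and in Glb1KO with 0.30 relative to WT (adjusted p = 0.00931 by edgeR).

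Of 9 genes of glutamate supply and uptake, 2 rose and 2 fell in DKO relative to WT, beside 14% and 15.1% of all tested genes. The astrocyte glutamate transporter Slc1a3 had a log2 fold change of 0.38 (adjusted p = 2.68e-05 by edgeR) and glutamine synthetase, Glul, of 0.21. The vesicular transporter Slc17a6, used mainly below the cortex, had -0.49 and the Purkinje cell transporter Slc1a6 -0.90 (adjusted p = 2.27e-07 by edgeR). Slc1a2, the main astrocyte transporter and the highest of the list in CPM, had -0.01 and did not pass the test. Of 8 genes of GABA synthesis, transport and chloride balance, 3 fell and none rose: the vesicular transporter Slc32a1 (-0.25), the astrocyte GABA transporter Slc6a11 (-0.40) and the neuronal chloride exporter Slc12a5 (-0.30, adjusted p = 1.23e-05 by edgeR), which also had the highest CPM of the list. The GABA-synthesising enzymes Gad1 and Gad2 had -0.01 and -0.03 and did not pass the test.

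Markers of the cell types that a hemisphere can hold moved beside the receptors in DKO. The counts are relative to WT, where 15.1% of all tested genes fell and 14% rose. The summed level of the pan-neuronal list ran from 7710 to 8533 CPM in DKO, against 8887 to 9225 CPM in WT, and 8 of its 14 genes fell, with Nefl and Elavl3 at -0.46 and -0.27. The cortical excitatory list had 6 of 10 lower and 1 higher (Lamp5 -0.57, Cux2 -0.29), the thalamic list 5 of 7 lower (Ntng1 -0.61, Synpo2 -0.56), and the Purkinje list 6 of 6 lower, with a summed level of 915 to 1434 CPM in DKO against 1921 to 2119 CPM in WT (Itpr1 -0.74, Rgs8 -0.81). The inhibitory interneuron list had 2 of 8 higher and 2 lower (Vip 0.56, Maf 0.40), the striatal list 1 of 8 higher (Ppp1r1b 0.45), and the dentate and hippocampal list 3 of 6 higher and 1 lower (Wfs1 0.40, Dsp 0.55). Beside Grm4, Gabrd and Grin2c, the cerebellar granule cell list had 3 of 8 lower (Zic1 -0.42, Calb2 -0.32) and a summed level of 871 to 1214 CPM in DKO against 958 to 1141 CPM in WT.

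Beside Grm3, the astrocyte list had 8 of 10 higher and 1 lower (Aqp4 1.60, Aldh1l1 0.79), with a summed level of 3210 to 3477 CPM in DKO against 1937 to 2378 CPM in WT. The oligodendrocyte precursor list had 4 of 7 lower (Sox10 -0.81, Olig2 -0.76), with a summed level of 262 to 348 CPM in DKO against 368 to 443 CPM in WT. All 8 reactive astrocyte markers (Serpina3n 4.84, Osmr 3.69) and 10 of 12 microglial markers rose (Cd68 3.89, C1qa 2.62), all 10 myelin markers fell (Tspan2 -0.86, Mag -0.94), and the endothelial list had 1 of 8 higher and 2 lower (Slco1a4 0.60, Kdr -0.53). The hindbrain and spinal list, of which Hoxb2 and Hoxb3 were too low to test, had 4 of 6 lower (Glra1 -1.18, Hoxc4 -2.47) and a summed level of 20.8 to 41.2 CPM in DKO, 14.0 to 32.0 in Glb1KO, 13.9 to 76.0 in Neu3KO and 62.6 to 102 CPM in WT. The part of these lists in the receptor differences was not tested. Of all tested genes 14% rose and 15.1% fell in DKO relative to WT. No list had a summed level of 0 in any library.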

How the data were processed

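Polyadenylated RNA of a brain hemisphere was sequenced in 20 libraries, per the labels. The authors deposited raw read counts per gene, not normalized, and their own table for DKO against WT. Per the file headers, it gives log2 fold changes, p-values and adjusted p-values. The deposited FPKM values were not used. The submitters' processing notes list mm10 and GRCm38 as builds and, as tools, DESeq2 1.20.0, featureCounts 1.5.0-p3, HISAT2 2.0.5 and fastp, with no strand setting, so reads of genes that overlap on opposite strands could not be told apart. No sample column of the count table was left unmatched.

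Counts were filtered with edgeR 4.0.16 (filterByExpr by genotype), scaled with TMM factors and fitted with a mean per genotype over all 20 libraries (R 4.3.3, limma 3.58.1). The robust quasi-likelihood F test was adjusted by Benjamini-Hochberg over all 18336 tested genes, with a threshold of 0.05 and no fold minimum. Standard errors were derived from the F statistic. Levels per length used the gene length of the deposited table. The method was tested on simulated counts. Two-sided exact permutation tests were run on 4 subunit ratios. Replicates were compared, and no pair agreed within sampling noise. The squared difference per gene, over that of sampling noise, was 19.6 to 26.6 between WT replicate 1 and the other WT libraries. Among those others it was 3.28 to 5.15. Without WT replicate 1, 19 members fell in DKO relative to WT, while 26.1% of tested genes were called. Every member is named; of the partner lists, members that passed the test in DKO against WT (at most 4) and the member of highest CPM (for the GABA receptor anchors, not reported here); of the marker lists, the 2 with the smallest adjusted p. The members and lists were chosen with earlier results of these data known. Alternatives were other scaling factors, other filters, DESeq2 1.42.0, a term for the replicate number or the identifier letter, separate fits of each pair of groups, the E libraries alone, and leaving out each library. Fits of the W libraries alone, and without the W or the E libraries of DKO, were added after seeing the data.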

Additional observations from a re-analysis of the deposited data

Results flagged for a closer look

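In 8 of 148 groups examined, a single library stood apart, with a gap to its nearest neighbour above 0.71 of the group's range; chance gives about 1 in 20 such groups. In WT, replicate 1 had 886 CPM of Grin2b, above the 581 to 637 CPM of the other WT libraries, and 88.4 CPM of Gabra4, below the 99.0 to 102 CPM of the others. WT replicate 2 had 114 CPM of Grm4, below 138 to 142 CPM in the others. In Glb1KO, replicate 4 had 46.2 CPM of Gabra2, above 34.9 to 37.0 CPM, and 30.8 CPM of Gabrg1, below 37.2 to 39.3 CPM, and replicate 2 had 18.3 CPM of Grik1, above 16.2 to 16.8 CPM. Neu3KO replicate 5 had 157 CPM of Grik3, above 140.7 to 144 CPM. DKO replicate 5 had 374 CPM of Grin1, above 358 to 359.9 CPM.

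By edgeR's test of the interaction, the difference tied to Neu3 loss was not the same without and with Glb1 for 10 members, all below 0. The genotypes also differed in identifier letter, and the E libraries held 1 Neu3KO library, too few to judge the interaction. Among all tested genes 2.88% passed below 0 and 6.84% passed in all. The log2 interaction was -0.77 for Grm3, -0.49 for Gabbr2, -0.43 for Gabra4, -0.41 for Gria3, -0.39 for Grid1 and for Grm2, -0.37 for Gria4, -0.30 for Grin2a, -0.29 for Gabrb2 and -0.25 for Gabbr1. Scaled to pan-neuronal genes 2 members passed, while 21.3% of tested genes did. Without the W libraries of DKO 5 members passed, while 3.07% of tested genes did.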

How the results depend on the processing

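Scaling to pan-neuronal genes gave 11 called members in DKO against WT, 8 against Glb1KO, 11 against Neu3KO and 2 in the interaction, while 39.2%, 37.6%, 40% and 21.3% of tested genes were called. The median of all tested genes was then 0.19, 0.21, 0.21 and 0.23, in the same order. The log2 fold change changed sign, to above 0, for 12 members in DKO against WT, 18 against Glb1KO, 12 against Neu3KO and 13 in the interaction. Those called in either fit were 3 against WT (Gria2 0.15, Gabra3 0.13, Gabra4 0.15), 9 against Glb1KO (Gria1 0.18, Gria2 0.16, Gria3 0.0030, Grin1 0.035, Grin2a 0.0044, Grm5 0.0076, Gabra3 0.15, Gabrb1 0.19, Gabbr1 0.0064) and 4 against Neu3KO (Gria1 0.19, Grin1 0.034, Grin3a 0.0096, Gabra5 0.20). The E libraries alone, with fewer samples, gave 12 called members in DKO against WT, 0 in Glb1KO against WT and 5 in DKO against Glb1KO. Of tested genes, 12.9%, 1.61% and 4.48% were called in these. The E libraries held 1 Neu3KO library, too few to judge the comparisons with Neu3KO or the interaction. There the log2 ratio of Grik2 to Grik5 differed by -0.28 in Glb1KO against WT (-0.13 with all libraries) and by 0.22 in DKO against Glb1KO (-0.05). Without the W libraries of DKO the counts were 6 against Glb1KO, 12 against Neu3KO and 5 in the interaction, with 6.1%, 11.1% and 3.07% of tested genes called. The letter as a term gave 7 against Glb1KO, with 6.56% of tested genes called. The cause was not tested where samples did not differ in number. Leaving out each library in turn gave 18 to 19 in DKO against WT, 1 in Glb1KO against WT, 0 in Neu3KO against WT, 12 to 16 in DKO against Glb1KO, 20 to 22 in DKO against Neu3KO and 7 to 13 in the interaction. Against WT, the shares of tested genes called were 23.9% to 28.8% in DKO, 2.96% to 4.42% in Glb1KO and 0% to 0.00538% in Neu3KO. They were 12.4% to 16.2% in DKO against Glb1KO, 20.4% to 25.1% against Neu3KO and 5.28% to 7.11% in the interaction. Other scaling factors, filters, DESeq2 and fits of the compared groups alone kept each count within 1.5 times. Replicate numbers did not pair the libraries, since deviations of same-numbered libraries correlated between -0.163 and 0.077. With the replicate block the counts were 19, 1, 0, 17, 21 and 12, in the order of the leave-out ranges. In the same order, 28.4%, 3.74%, 0%, 15.1%, 24.3% and 6.2% of tested genes were called. The subunit ratios could not be judged with this block, since flipping signs over 5 pairs cannot give a p under 0.05.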
